A study of Mus musculus with 6 samples.

Results

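The 7 genes described here make, bind or break down hyaluronan, a long unbranched sugar chain of the extracellular matrix. They were chosen by name, with earlier results of these data known: Has1, Has2, Ugdh, Hyal2, Cd44, Tnfaip6 and Ptx3. All 7 were among the 16494 genes of the count table, and 36 of the 40 genes on a wider hyaluronan list were measured as well. The study sequenced single cells of the lower abdominal muscle (LAM) from FVB/N male mice aged 9 to 10 weeks, 3 wild-type (WT) and 3 Aromhum. Aromhum mice carry a genomic fragment with the human aromatase gene CYP19A1 under its own promoters, and they have scrotal hernia by these weeks. WT mice were littermates without the fragment. One muscle was dissociated per mouse, and each mouse gave 1 library on the 10x Genomics 3' platform. Aromhum mice are called Arom below, as in the sample names, and the mouse is the replicate throughout.

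Hyaluronan is made at the plasma membrane by the hyaluronan synthases, which extrude the chain while they build it from UDP-glucuronic acid and UDP-N-acetylglucosamine. In skeletal muscle and its connective tissue it is a product chiefly of fibroblasts, and it fills the matrix between fibers and fascial layers. The chain can be decorated with heavy chains of inter-alpha-inhibitor and cross-linked into a stiffer, cell-binding matrix, as happens around the ovulating oocyte and in inflamed tissue.

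Libraries held 7905 to 13764 barcodes and 64958237 to 111826460 unique molecular identifiers (UMIs, counted molecules), 63647 barcodes in all. The WT libraries were shallower, with a median of 4728.5 to 5897 UMIs per barcode against 6673 to 8727 in Arom libraries. CYP19A1 had no UMI in the WT libraries and 770, 797 and 787 UMIs in the Arom libraries, so the genotype labels held. WT replicate 2 stood apart by its mitochondrial RNA, since 68.2% of its barcodes had over 5% mitochondrial UMIs against 27.6% to 40.1% in the other libraries. Arom replicate 3 stood apart from the other Arom mice in its fibroblasts, as given below, and each call of the 7 genes is given with what became of it when each library was left out. Of the barcode sequences, 471 occurred in more than 1 library, on 943 barcodes.

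Cells were clustered without the hyaluronan genes and named from marker genes. Fibroblast-like cells (23699 barcodes) carried their defining markers, with a summed level of Pdgfra, Col1a1, Col1a2, Col3a1, Mfap4, Dcn and Lum of 44470 to 50780 UMIs per 1000000 UMIs of the same cells (CPM) in the 6 mice. Within them, groups were named after the study's populations: fibroadipogenic progenitor (FAP)-like cells, tenocyte progenitor-like and tenocyte-like cells, Dmkn-hi-like cells, and the Esr1-hi and Mmp3-hi hernia-associated fibroblast (HAF)-like cells. Clusters without a clear name held 4321 barcodes.

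The 4 promoters below are shown because these genes turned out to be read out in the same cells. Each line is the stretch of 120 bases that ends at the base before the outermost annotated start of the gene, from RefSeq on GRCm38.p6, 5′ to 3′ on the strand of the gene. Capitals mark a cyclic AMP response element in Has1 and an AP-1 element in Tnfaip6. The reference is of the C57BL/6J strain, not FVB/N.
Has1, chr17:17855206-17855325, minus strand: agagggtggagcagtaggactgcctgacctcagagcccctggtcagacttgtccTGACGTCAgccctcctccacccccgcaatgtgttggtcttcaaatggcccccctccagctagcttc
Ugdh, chr5:65435950-65436069, minus strand: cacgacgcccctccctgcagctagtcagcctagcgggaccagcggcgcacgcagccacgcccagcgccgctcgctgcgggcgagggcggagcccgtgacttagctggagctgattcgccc
Tnfaip6, chr2:52037889-52038008, plus strand: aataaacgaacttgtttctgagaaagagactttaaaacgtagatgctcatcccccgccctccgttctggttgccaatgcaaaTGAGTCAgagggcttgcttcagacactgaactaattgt
Ptx3, chr3:66219767-66219886, plus strand: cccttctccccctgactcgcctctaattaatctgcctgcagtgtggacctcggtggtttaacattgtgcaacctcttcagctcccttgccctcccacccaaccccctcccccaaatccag
Of the 7 genes, 6 had a promoter entry and 5 had a window that lay outside the gene, the fifth being Cd44. Both strands were searched, in 32851 windows of the same length. The cyclic AMP response element TGACGTCA lay at positions -66 to -59 of Has1 and in 1.24% of all windows. The AP-1 element TGANTCA lay at -38 to -32 of Tnfaip6 and in 3.41% of all windows. The full estrogen response element, GGTCA and TGACC around 3 free bases, was in none of the 5 windows and in 0.0304% of all windows, while its arm GGTCA occurred at 2 places in Has1 and in 18.9% of all windows. No TATAAA box (6.34% of windows) or kappaB site (3.65%) was matched in the 5 windows. A match describes the letters only.

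The first question was which cells of the muscle hold these transcripts. Fibroblast-like cells held most UMIs of 5 of the 7 genes in every mouse. On average over the 6 mice they held 89.5% of the Has1 UMIs, 89.8% of Has2, 86.7% of Ugdh, 89.3% of Tnfaip6 and 92.3% of Ptx3. The share was 64.2% for Cd44, with a mean of 52.8% in WT mice, where WT replicates 2 and 3 were at 49.8% and 39.8%, and of 75.7% in Arom mice. For Cd44 macrophages and monocytes held 8.80% and muscle stem cells (MuSCs) and myoblasts 5.90%. Hyal2 was distributed differently, with 42.3% of its UMIs in endothelial and 19.0% in fibroblast-like cells. The mean endothelial share of Hyal2 was 48.4% in WT and 36.3% in Arom mice, and the fibroblast-like share 11.3% and 26.6%. In Arom replicate 2 the order turned, with 26.3% in endothelial and 31.6% in fibroblast-like cells. These shares depend on how many cells of each type were captured, and fewer cells of a type and less RNA per cell cannot be told apart in a sum.

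**Figure D1:**
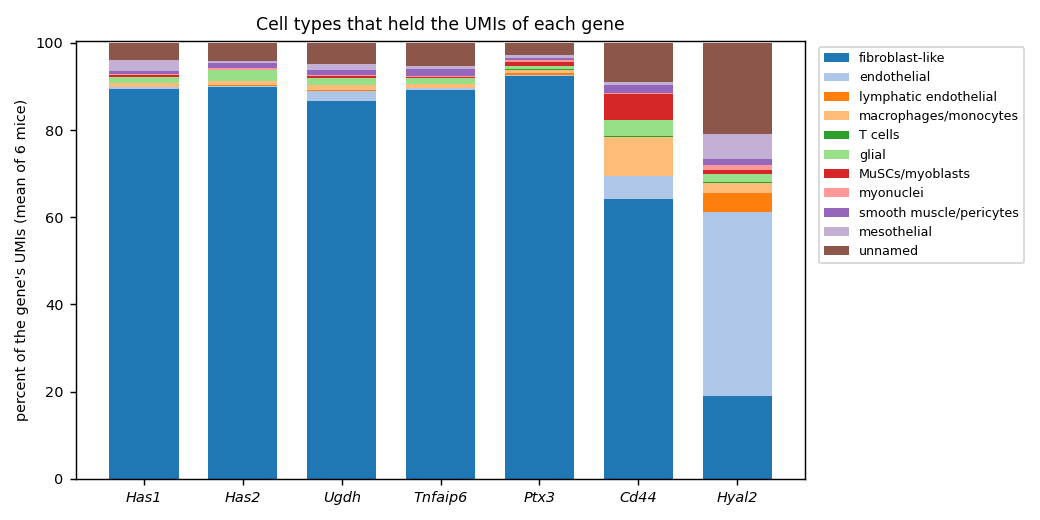
Stacked bars give, for each gene on the x axis, the percent of its UMIs found in each of the 10 named cell types and in unnamed clusters (y axis, mean of 6 mice). Fibroblast-like cells take 86.7% or more of the bar for Has1, Has2, Ugdh, Tnfaip6 and Ptx3, 64.2% for Cd44 and 19.0% for Hyal2.

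The level in CPM does not depend on how many cells of a type were captured. Has1, which encodes 1 of the synthases, stood at 1363 ± 528 CPM (SD, n = 6 mice) in fibroblast-like cells and at 350.4 ± 78.5 CPM in glial cells, the next in order. It was higher in fibroblast-like than in glial cells in 6 of 6 mice, and these ranges did not overlap. Below them came mesothelial cells at 236.8 ± 47.3 CPM and smooth muscle cells and pericytes at 180.7 ± 52.6 CPM, with overlapping ranges. Endothelial cells were lowest, at 12.17 ± 5.02 CPM.

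Has2, the synthase required for the heart in embryos, was also highest in fibroblast-like cells. It had 73.2 ± 10.5 CPM in fibroblast-like and 32.3 ± 10.8 CPM in glial cells, again without overlap, and 0.620 ± 0.401 CPM in endothelial cells. Ugdh, the dehydrogenase that makes UDP-glucuronic acid, had 1003 ± 252 CPM in fibroblast-like cells. Glial cells (273.4 ± 75.5 CPM) and smooth muscle cells and pericytes (244.5 ± 118 CPM) shared the next place for Ugdh, each being the higher in 3 of 6 mice.

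Tnfaip6 encodes TSG-6, which transfers inter-alpha-inhibitor heavy chains onto hyaluronan. It had 2140 ± 220 CPM in fibroblast-like cells and 660.1 ± 87.3 CPM in smooth muscle cells and pericytes, without overlap. Ptx3, the long pentraxin that joins TSG-6 in cross-linking the decorated chain, had 935.2 ± 525 CPM in fibroblast-like cells. The next cell type for Ptx3 was T cells at 228.5 ± 366 CPM, a mean carried by Arom replicates 1 and 2 (911.5 and 387.3 CPM) against at most 34.2 CPM in the other 4 mice. In those T cell clusters the 7 fibroblast markers stood at a median of 42.1% and 30.9% of their fibroblast-like level, against 0.395% to 13.6% in the other 4 mice, and the part of these transcripts in the T cell values was not tested.

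Cd44, the main cell surface receptor for hyaluronan, was not led by fibroblasts. Macrophages and monocytes had 441.8 ± 52.6 CPM and MuSCs and myoblasts 430.3 ± 131 CPM, and each was the higher in 3 of 6 mice. T cells at 327.0 ± 48.8, fibroblast-like cells at 299.1 ± 67.3 and glial cells at 274.4 ± 76.8 CPM followed with overlapping ranges. Hyal2, a hyaluronidase anchored to the cell surface, was highest in lymphatic endothelial (46.4 ± 6.38 CPM) and endothelial cells (36.8 ± 8.34 CPM). Endothelial cells were above glial cells, the next in order at 10.7 ± 4.15 CPM, in 6 of 6 mice without overlap, and fibroblast-like cells were at 4.65 ± 0.796 CPM.

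**Figure D2:**
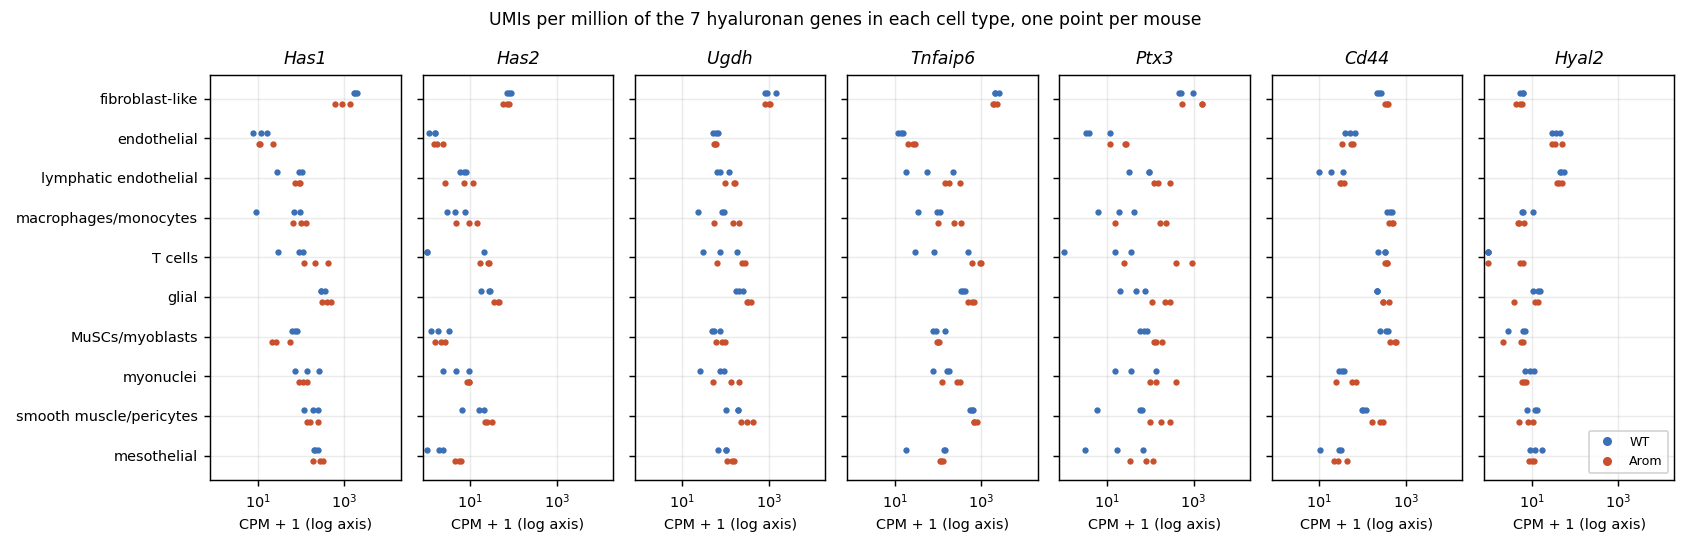
Each panel shows 1 gene, with the cell types on the y axis and CPM + 1 on a log x axis, 1 point per mouse (blue WT, red Arom). The points of Has1, Has2, Ugdh and Tnfaip6 in fibroblast-like cells lie to the right of those in every other type, whereas Cd44 is spread over macrophages, MuSCs, T cells and fibroblasts, and Hyal2 lies furthest right in the endothelial types.

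RNA released from broken cells reaches every droplet, so low levels were read against fibroblast markers measured in the same way. In endothelial cells the 7 markers stood at a median of 0.878% of their fibroblast-like level. Has1 was there at 1.02%, Has2 at 0.838% and Tnfaip6 at 0.882% of its fibroblast-like level, none of them above the highest marker in any mouse, so these values were not distinguishable from background. Ptx3 (1.25%) was above every marker in 3 of 6 mice. Ugdh (5.82%), Cd44 (17.8%) and Hyal2 (804%) exceeded every marker in 6 of 6 mice. In smooth muscle cells and pericytes the markers stood at 9.57%, and Tnfaip6 (31.1%) and Cd44 (55.0%) exceeded all of them in 6 of 6 mice. Has1 exceeded every marker in 3 of 6 mice in glial cells (30.6%, markers 20.2%), in 2 of 6 in smooth muscle cells and pericytes (14.9%) and in none in mesothelial cells (20.6%, markers 16.6%). Tnfaip6 and Ptx3 in glial cells did so in none. In these types the markers themselves stood higher than in endothelial cells, and what they measured there was not tested. The comparison therefore cannot say whether Has1 in these types, or their order below fibroblast-like cells, was background.

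The share of cells with a UMI was compared after each cell had been thinned to 1000 UMIs, which left out 294 fibroblast-like and 2037 endothelial cells below that depth. Tnfaip6 was found in 55.4% of fibroblast-like cells, Has1 in 48.4%, Ugdh in 43.1%, Ptx3 in 29.0%, Cd44 in 22.6%, Has2 in 6.39% and Hyal2 in 0.426%. In endothelial cells the shares were 2.01%, 1.23%, 6.30%, 1.48%, 4.91%, 0.0986% and 3.69% in the same order. Median depths before thinning were 9891 UMIs in fibroblast-like and 3989.5 in endothelial cells. Without thinning the fibroblast-like shares were 79.7% for Tnfaip6, 76.2% for Has1 and 32.7% for Has2.

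Transcripts of the synthesis and cross-linking genes occurred in the same fibroblasts. Among thinned fibroblast-like cells, Tnfaip6 was found in 74.4% of the cells with a Has1 UMI and in 37.2% of those without. Ugdh was found in 59.7% against 27.2% of these cells. Ptx3 was found in 40.8% of the cells with Tnfaip6 and in 13.7% of those without, and each of these shares was higher in the positive cells in 6 of 6 mice. Over the 10 pairs of Has1, Has2, Ugdh, Tnfaip6 and Ptx3, cells with both were 1.35 to 1.56 times as frequent as independent detection would give, and above 1 in every mouse. Pairs with Cd44 gave 1.15 to 1.21, and pairs with Hyal2 0.28 to 0.96. Hyal2 was found in few of these cells, so its ratios are uncertain. Among mice they ranged from 0.0 to 1.32 with Has2 and from 0.282 to 1.69 with Cd44. Within FAP-like cells alone Tnfaip6 was in 85.2% of cells with and 42.0% of cells without Has1, and in Esr1-hi HAF-like cells in 27.0% and 17.8%, in each group higher with Has1 in 6 of 6 mice. Not every pair did so in the Esr1-hi HAF-like group, where Has2 was in 3.21% of cells with and 3.12% without Has1, and Ptx3 in 15.7% of cells with and 11.7% without Ugdh, each higher in 3 of 6 mice.

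Among groups of fibroblast-like cells, Dmkn-hi-like cells were high for every synthesis and cross-linking gene. Dmkn encodes dermokine, a secreted protein named for its expression in skin. Has1 stood at 2067 ± 785 CPM in Dmkn-hi-like, 2008 ± 372 in FAP-like and 458.5 ± 212 in Esr1-hi HAF-like cells (SD, n = 6 mice). Has2 had 162.2 ± 15.4 CPM in Dmkn-hi-like cells and 91.8 ± 18.1 CPM in FAP-like cells, and was the higher in the former in 6 of 6 mice. Ugdh ranged from 2499 ± 550 CPM in Dmkn-hi-like cells over 926.3 ± 111 in FAP-like cells to 156.5 ± 72.1 in Esr1-hi HAF-like cells. Tnfaip6 had 3758 ± 478, 3470 ± 429 and 379.1 ± 289 CPM in the same groups. The Esr1-hi HAF-like group, which the study names for its estrogen receptor, was therefore lowest or level with tenocyte-like cells for Has1, Ugdh and Tnfaip6. Cd44 had group means from 231.0 to 371.7 CPM.

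Mmp3-hi HAF-like cells were present in number only in WT replicate 1 (107 cells) and Arom replicates 1 and 2 (661 and 1295 cells). WT replicate 2 had 0, WT replicate 3 had 3 and Arom replicate 3 had 9, so no test was made. These cells had the highest group mean of Ptx3, with 2651 CPM in WT replicate 1 and 3023 and 2968 CPM in Arom replicates 1 and 2. Has1 there had 2739 CPM in the WT mouse and 1101 and 759.1 CPM in the Arom mice. Tnfaip6 had 5693 CPM in the WT mouse and 3032 and 2878 CPM in the Arom mice.

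**Figure D3:**
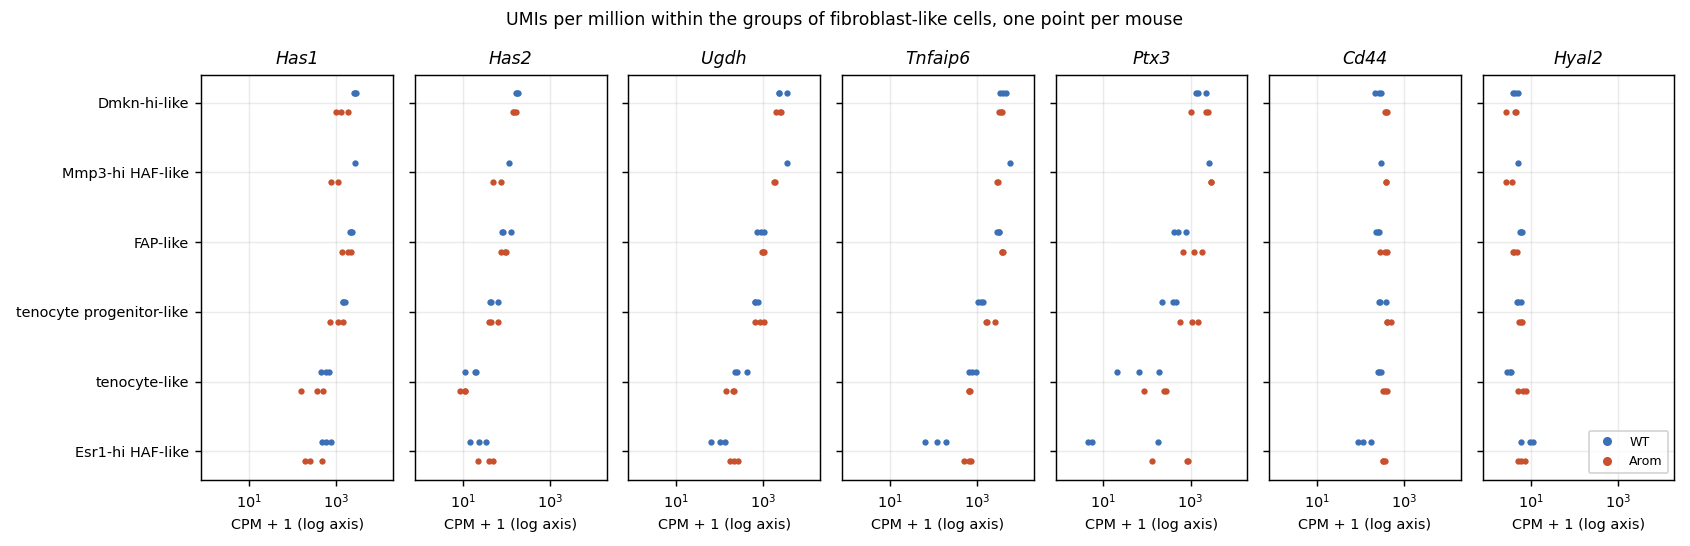
Each panel shows 1 gene, with the groups of fibroblast-like cells on the y axis and CPM + 1 on a log x axis, 1 point per mouse with at least 20 cells (blue WT, red Arom). Mmp3-hi HAF-like points lie furthest right for Ptx3, where Dmkn-hi-like and FAP-like points overlap, Esr1-hi HAF-like points lie left for Has1, Ugdh and Tnfaip6, and Cd44 points form a narrow column with Arom to the right of WT.

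The genes whose levels followed each member most closely over the 60 sums of a mouse and cell type were sought among 8215 genes outside the hyaluronan list. Pearson's r of log2(CPM + 1) was highest for Has1 with Entpd2 (0.887), Gsn (0.886) and Ndn (0.884), and for Has2 with Fgf7 (0.883), Lgi2 (0.867) and Mfap5 (0.858). For Ugdh they were Fstl1 (0.882), Vasn (0.876) and Dclk1 (0.866), for Tnfaip6 Entpd2 (0.885), Dpep1 (0.882) and Axl (0.874), and for Ptx3 Lrrc17 (0.846), Tmem45a (0.846) and Htra3 (0.844). Cd44 was closest to Cdk14 (0.860), Glipr2 (0.838) and Ell2 (0.826), and Hyal2 to Ephb4 (0.895), Sema3f (0.878) and Stc1 (0.860), genes of other patterns. Among the members, Has2 with Ugdh gave 0.854 and Has1 with Tnfaip6 0.846, while Cd44 with Hyal2 gave -0.641. Sums of 1 mouse share a library, so these values are a description.

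The main comparison asked how the genotypes differ in fibroblast-like cells. Cd44 rose in Arom mice, and it was 1 of 7 members that passed the threshold, where 12.6% of all 14071 genes tested did and 7.06% rose. Its level was 263.5, 239.4 and 219.7 CPM in WT replicates 1 to 3 and 382.3, 358.9 and 331.2 CPM in Arom replicates 1 to 3. Every Arom mouse was above every WT mouse. The log2 fold change was 0.56 ± 0.137 (SE), a fold of 1.48, with a Benjamini-Hochberg adjusted p of 0.0431 by edgeR's quasi-likelihood test. The call was lost without each mouse but Arom replicate 3, with log2 fold changes of 0.49 to 0.67 and adjusted p up to 0.149 by edgeR, and among the 18852 barcodes within the study's limits (200 to 2500 genes, no fewer than 1000 UMIs and no more than 5% mitochondrial) it had an adjusted p of 0.287.

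Has1 was lower in every Arom mouse but did not pass. WT mice had 1926, 1687 and 1753 CPM and Arom mice 858.6, 610.4 and 1342 CPM. The groups did not overlap, and Arom replicate 3 lay nearest to WT. The log2 fold change was -0.96 ± 0.26 with an adjusted p of 0.0552 by edgeR's quasi-likelihood test. Without Arom replicate 3 it was -1.27 with an adjusted p of 0.00592 by edgeR, and DESeq2 gave an adjusted p of 0.00245. With equal weight for each of 12 fibroblast sub-clusters the difference was -0.38 with an adjusted p of 0.314 by limma. These 12 had at least 10 cells in every mouse. They left out every sub-cluster of the Esr1-hi and Mmp3-hi HAF-like cells, so this value is not a reweighting of all fibroblast-like cells. Esr1-hi HAF-like cells, in which Has1 was low, made up 5.79% to 7.87% of fibroblast-like cells in WT and 17.3% to 30.4% in Arom mice. FAP-like cells made up 27.9% to 39.7% in WT mice and 11.6%, 9.93% and 31.4% in Arom mice. The part of this makeup in the Has1 difference was not tested. Within the tested groups the log2 fold change of Has1 ran from -1.01 in Esr1-hi HAF-like to -0.34 in FAP-like cells, and it passed in none.

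Ptx3 differed widely among the Arom mice. It had 968.8, 522.2 and 449.5 CPM in WT mice and 1566, 1575 and 529.5 CPM in Arom mice. Arom replicate 3 lay within the WT range, so the groups overlapped. Mmp3-hi HAF-like cells, in which Ptx3 was high, made up 2.88%, 0.0% and 0.169% of fibroblast-like cells in WT replicates 1 to 3. In Arom replicates 1 to 3 they made up 13.1%, 18.6% and 0.248%, and the part of this makeup in the Ptx3 values was not tested. The log2 fold change of 0.92 ± 0.496 had an adjusted p of 0.241 by edgeR, and without Arom replicate 3 it was 1.28 with an adjusted p of 0.0315 by edgeR.

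The other 4 members overlapped between genotypes in fibroblast-like cells. Has2 had 80.1, 69.3 and 85.7 CPM in WT and 71.2, 55.6 and 77.5 CPM in Arom mice. Ugdh had 1479, 800.3 and 882.9 CPM in WT and 977.2, 1059 and 821.3 CPM in Arom mice. For both, 1 mouse set the width of its group, Arom replicate 2 for Has2 and WT replicate 1 for Ugdh. Tnfaip6 had 2517, 2068 and 2058 CPM in WT and 2005, 1914 and 2281 CPM in Arom mice. Hyal2 had 4.45 to 5.38 CPM in WT and 3.29 to 5.10 CPM in Arom mice. Their log2 fold changes ran from -0.27 for Hyal2 to -0.11 for Tnfaip6, with adjusted p of 0.332 to 0.716 by edgeR.

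**Figure D4:**
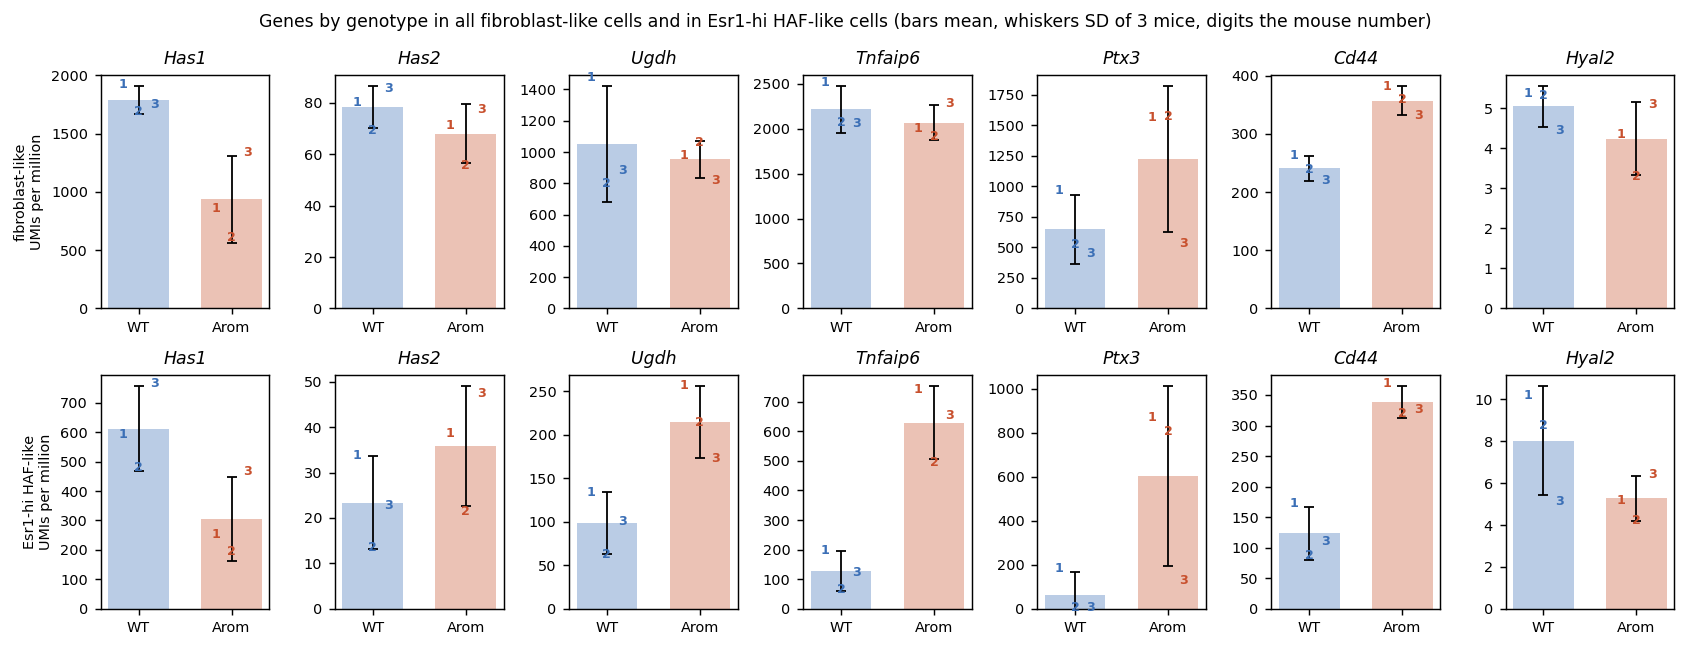
Bars give mean CPM (y axis, linear, from 0) in WT and Arom mice, whiskers the SD of 3 mice, and digits the replicate number, for all fibroblast-like cells (top) and Esr1-hi HAF-like cells (bottom). Has1 is below WT and Cd44 above WT in every Arom mouse of both rows, while Ugdh and Tnfaip6 separate the genotypes only in the bottom row.

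The wider hyaluronan list was read by role in the same fit. It was chosen with earlier results of these data known, so its values beside all genes, here and below, are a description. Of its 29 genes tested in fibroblast-like cells, 7 rose and 2 fell, with a median log2 fold change of -0.09, where 7.06% of all genes tested rose and 5.56% fell, with a median of 0.0069. The 7 that rose include Hapln4 and Bcan, which passed the filter on low counts through Arom mice only and could only be called higher. The counts by role are small. Among genes of precursor supply, 3 of 7 rose. They were Gfpt1, the entry enzyme of the hexosamine pathway (0.48), Gnpnat1 (0.42) and Pgm3 (0.47), which carry its product on toward UDP-N-acetylglucosamine. Of the heavy chain transfer genes, 1 of 5 tested fell, Itih4, at levels of at most 0.58 CPM.

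Hyalectans and link proteins bind the chain from outside and anchor it to other matrix molecules. Of 4 tested, 3 were called higher, but for Hapln4 and Bcan no other call was possible. Both passed the filter through Arom mice only, so this count says nothing about the role as a whole. Vcan, which encodes versican, had 266.5, 290.2 and 313.1 CPM in WT and 530.3, 497.0 and 520.4 CPM in Arom mice. Every Arom mouse was above every WT mouse, and the log2 fold change was 0.83 ± 0.101 with an adjusted p of 0.0171 by edgeR. Hapln4, a link protein known from brain, had no UMI in WT and 211, 159 and 87 UMIs in Arom mice. Bcan, which encodes brevican, had no UMI in WT and 74, 95 and 23 UMIs in Arom mice. Against a floor of 3 UMIs per library, Hapln4 was at least 10.1-fold and Bcan at least 2.67-fold higher in Arom mice. Of the 211, 159 and 87 UMIs of Hapln4, 195, 147 and 80 lay in Esr1-hi HAF-like cells. None of these wider calls held in all 6 fits that left out 1 mouse. Vcan and Hapln4 passed in 2 of 6, without WT replicate 1 and without Arom replicate 3, with adjusted p up to 0.0834 by edgeR, and Gfpt1, Gnpnat1, Pgm3, Itih4 and Bcan passed only without Arom replicate 3. Within the study's limits Gfpt1, Gnpnat1, Pgm3 and Vcan were tested and did not pass, and Vcan was 0.74 with an adjusted p of 0.172 by edgeR.

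Other lists were read in the same cells. Of 13 immediate early and heat shock genes, 6 fell and none rose in Arom fibroblast-like cells, where 5.56% of all genes tested fell, and their summed level was 13650 to 15710 CPM in WT and 7056 to 10470 CPM in Arom mice. Of 10 inflammatory genes 1 fell, and their summed level overlapped, at 10940 to 13020 CPM in WT and 9089 to 17150 CPM in Arom mice. All 5 genes of an estrogen list rose. They were also among the markers that named the Esr1-hi HAF-like cells, whose share was larger in Arom mice. Their rise is therefore no separate measure of estrogen action. The part of these lists in the values of the hyaluronan genes was not tested.

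Within Esr1-hi HAF-like cells, 3 of 7 members rose: Tnfaip6, Cd44 and Ugdh, where 6.89% of 11831 genes rose and 14.4% changed in either direction. Tnfaip6 had 198.0, 64.4 and 123.0 CPM in WT and 740.0, 496.0 and 653.5 CPM in Arom mice. Cd44 had 172.3, 87.8 and 110.5 CPM in WT and 368.5, 319.7 and 327.0 CPM in Arom mice. Ugdh had 133.3, 62.6 and 100.3 CPM in WT and 256.0, 214.0 and 172.9 CPM in Arom mice. In all 3 genes every Arom mouse was above every WT mouse. The log2 fold changes were 2.29 ± 0.383 for Tnfaip6, 1.46 ± 0.252 for Cd44 and 1.13 ± 0.291 for Ugdh, with adjusted p of 0.0133, 0.014 and 0.0399 by edgeR's quasi-likelihood test. Leaving out each mouse in turn kept 4 of 6 calls for Tnfaip6 (1.97 to 2.79) and for Cd44 (1.26 to 1.82), both lost without WT replicate 3 (adjusted p 0.063 and 0.0641 by edgeR) and without Arom replicate 1 (0.057 and 0.0609). Ugdh (0.88 to 1.45) kept its call only without WT replicate 1 and without Arom replicate 3, and its adjusted p was 0.0801 to 0.141 by edgeR without each of the others.

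The 2 genotypes did not fill this group with the same sub-clusters. WT cells came mostly from sub-cluster 2, with 252, 148 and 106 cells against 8, 43 and 80 in Arom mice. Arom cells came mostly from sub-cluster 4, with 1165, 1309 and 337 cells against 32, 2 and 3 in WT mice, and from sub-cluster 19. Tnfaip6 in sub-cluster 4 had 696.2 CPM in WT replicate 1 and 930.4, 645.6 and 906.3 CPM in Arom mice, so the WT mouse lay within the Arom range. Cd44 there had 417.3 CPM in WT replicate 1 and 391.7 to 436.9 CPM in Arom mice, and Ugdh had 382.1 CPM against 209.3 to 303.2 CPM. In sub-cluster 2, Tnfaip6 had 52.0 to 105.6 CPM in WT mice and 85.0 and 253.4 CPM in Arom replicates 2 and 3. Cd44 there had 85.6 to 133.8 CPM in WT mice and 173.1 and 260.6 CPM in the same Arom mice, both above WT. Ugdh there had 62.4 to 86.5 CPM in WT mice and 91.1 and 170.8 CPM in these Arom mice, also both above WT. With finer clustering at a resolution of 1.2, the log2 fold change in the Esr1-hi HAF-like cells was 0.94 for Tnfaip6 (adjusted p 0.0665 by edgeR), 0.83 for Cd44 (0.0436) and 0.25 for Ugdh (0.389). A higher level per cell and another mix of cells inside the group cannot be told apart for Tnfaip6, Cd44 and Ugdh.

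The other members in Esr1-hi HAF-like cells did not pass. Has1 had 590.8, 479.7 and 766.3 CPM in WT and 253.8, 193.6 and 466.6 CPM in Arom mice, without overlap, and a log2 fold change of -1.01 ± 0.315 with an adjusted p of 0.0676 by edgeR. Has1 passed with DESeq2 (adjusted p 0.0226), without Arom replicate 3 (-1.42, 0.00783 by edgeR) and at clustering resolutions of 0.4 (-1.32, 0.0335) and 1.2 (-1.47, 0.041). Ptx3 had 182.2, 3.51 and 4.39 CPM in WT and 868.3, 807.7 and 130.5 CPM in Arom mice. WT replicate 1 and Arom replicate 3 crossed, so Ptx3 overlapped, and its adjusted p was 0.132 by edgeR. Leaving out 1 mouse gave log2 fold changes of 2.66 to 7.34 for Ptx3, and it passed only without WT replicate 1 (7.34, adjusted p 0.0242 by edgeR). Has2 had a log2 fold change of 0.57 with an adjusted p of 0.331 and Hyal2 of -0.67 with an adjusted p of 0.147 by edgeR, and both overlapped.

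In the same cells 9 of 26 tested genes of the wider list rose and 2 fell, where 6.89% of all genes rose and 7.52% fell. Their median log2 fold change was 0.58 against -0.00098 over all genes. Precursor supply had 5 of 7 higher, namely Ugdh, Gfpt1 (0.67), Gnpnat1 (0.71), Pgm3 (0.64) and Uap1 (1.79 ± 0.284, adjusted p 0.0115 by edgeR). Uap1 makes UDP-N-acetylglucosamine, the second building block of the chain, and had 183.4, 97.1 and 147.1 CPM in WT and 619.5, 449.8 and 397.0 CPM in Arom mice. Hyal1, a lysosomal hyaluronidase, fell (-1.21). With each mouse left out, Uap1 kept 5 of 6 calls, lost without WT replicate 3 (adjusted p 0.0559 by edgeR). Gfpt1 kept 3 calls, Gnpnat1 and Pgm3 kept 2, and Hyal1 passed only without Arom replicate 3. The genes that rose included Hapln4, which kept 6 of 6 calls, and Bcan. Neither had a UMI in WT mice, so both passed the filter through Arom mice only and could only be called higher. Against a floor of 3 UMIs per library, Bcan was at least 0.722-fold in Arom mice, so no rise beyond the floor was shown. It passed in 0 of the 3 such fits that tested it. For the wider list, too, level per cell and mix of sub-clusters cannot be told apart. Immediate early and heat shock genes stood at 18900 to 25380 CPM in WT and 7070 to 10740 CPM in Arom mice, and 8 of 13 fell, against 7.52% of all genes.

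Outside the Esr1-hi group no member passed in FAP-like, Dmkn-hi-like, tenocyte progenitor-like or tenocyte-like cells, where 1.96%, 1.19%, 0.327% and 1.38% of genes did. Cd44 was higher in every Arom mouse than in every WT mouse in each of these 4 groups, with log2 fold changes of 0.35 to 0.61 and adjusted p of 0.0767 to 0.252 by edgeR. In FAP-like cells it had 266.1, 244.8 and 229.5 CPM in WT and 358.0, 402.7 and 282.5 CPM in Arom mice. Tnfaip6 in FAP-like cells had 3285, 2877 and 3170 CPM in WT and 3751, 3710 and 4027 CPM in Arom mice, without overlap, and a log2 fold change of 0.26 with an adjusted p of 0.411 by edgeR. Has1 was below WT in every Arom mouse in Dmkn-hi-like cells, with 2868, 2619 and 2704 CPM in WT and 1306, 1007 and 1900 CPM in Arom mice, and a log2 fold change of -0.97 with an adjusted p of 0.0653 by edgeR. In FAP-like cells Has1 overlapped, with a log2 fold change of -0.34 and an adjusted p of 0.407 by edgeR. Without Arom replicate 3, Has1 (-1.18, adjusted p 0.00203 by edgeR) and Cd44 (0.69, 0.0113) passed in Dmkn-hi-like cells, Has1 in tenocyte-like cells (0.0434), and Ptx3 in FAP-like (1.36, 0.0212) and tenocyte progenitor-like cells (1.81, 0.0418).

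The genotype effect on Tnfaip6 differed between Esr1-hi HAF-like and the other fibroblast-like cells. The difference of the log2 fold changes was 2.07 ± 0.303 with an adjusted p of 0.0139 by edgeR with the mouse as a term, and Tnfaip6 was 1 of 7 members to pass where 2.86% of genes did. It kept 4 of 6 calls when each mouse was left out, being lost for Tnfaip6 without WT replicate 3 (2.17, adjusted p 0.0695 by edgeR) and without Arom replicate 1 (1.96, 0.0591). The difference was 0.92 ± 0.198 for Cd44 (adjusted p 0.05, not under the threshold) and 0.81 ± 0.18 for Ugdh (0.0551). Both passed with limma voom (0.0475 and 0.0452) and without the filter on low counts (0.0435 and 0.0487 by edgeR). The sub-clusters named above bear on these values too.

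In endothelial cells Tnfaip6 and Ptx3 rose, 2 of 6 members tested, where 8.22% of 12107 genes rose and 14.2% changed. Tnfaip6 had 14.96, 10.9 and 13.2 CPM in WT and 19.1, 24.9 and 29.2 CPM in Arom mice, without overlap. Its log2 fold change was 0.93 ± 0.185 with an adjusted p of 0.0136 by edgeR, and the call was lost only without WT replicate 2 (0.80, adjusted p 0.0556). Ptx3 had 10.8, 2.21 and 2.91 CPM in WT and 26.7, 25.01 and 10.7 CPM in Arom mice, with Arom replicate 3 just under WT replicate 1, and a log2 fold change of 2.02 ± 0.538 with an adjusted p of 0.0351 by edgeR. The Ptx3 call held without WT replicate 1 and without Arom replicate 3, and was lost without each of the others, at 1.63 to 1.87 and adjusted p of 0.088 to 0.139 by edgeR. With DESeq2 the adjusted p of Ptx3 was 0.0776. Ptx3 stood at 1.25% of its fibroblast-like level and exceeded every fibroblast marker in 3 of 6 mice, and Tnfaip6, at 0.882%, in none. The fibroblast markers moved alongside, from 186.2 to 288.5 CPM in WT to 430.9 to 533.5 CPM in Arom endothelial cells, and their part in these values was not tested. Hyal2, which on average had its largest share of UMIs in endothelial cells, had 28.4 to 44.7 CPM there in WT and 29.3 to 48.9 CPM in Arom mice. Its log2 fold change was 0.06 ± 0.22 with an adjusted p of 0.883 by edgeR.

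With the replicate number as a block, 2875 genes changed in endothelial cells against 1719 without it, and both members kept their calls. Of the wider list, 9 of 27 tested rose and 1 fell in endothelial cells, where 8.22% of all genes rose and 5.98% fell. Their median log2 fold change was 0.37 against -0.0084 over all genes. Among them were Vcan (2.25), Itih3 (2.04), which encodes a heavy chain, Tmem2 (1.05), a hyaluronidase of the cell surface, and Uap1 (0.74), and the one that fell was the synthase Has3 (-1.21). Vcan, Itih3 and Tmem2 kept 6 of 6 calls when each mouse was left out, Has3 kept 3, and Uap1 passed only without WT replicate 1 (adjusted p up to 0.154 by edgeR). The fibroblast markers rose in Arom endothelial cells as given above, and their part in the values of the wider list was not tested. Of 13 immediate early and heat shock genes 9 fell, and of 9 inflammatory genes tested 5 rose.

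The fibroblast-like and endothelial effects were compared within mice. Has1 differed by -1.32 ± 0.234 on the log2 scale, Tnfaip6 by -1.02 ± 0.162 and Ptx3 by -1.33 ± 0.279, each lower in fibroblast-like cells, with adjusted p of 0.0117, 0.00894 and 0.0205 by edgeR. These were 3 of 7 members, where 10.9% of genes passed. Leaving out each mouse kept 6 of 6 calls for Has1 and Tnfaip6 and 3 of 6 for Ptx3, which lost its call without WT replicates 2 and 3 and Arom replicate 1 (adjusted p 0.0539, 0.064 and 0.0671 by edgeR). Within the study's limits none of them passed, with -0.75 for Has1 (adjusted p 0.372 by edgeR), -0.81 for Tnfaip6 (0.152) and -1.37 for Ptx3 (0.116). The Has1 and Tnfaip6 levels in endothelial cells did not exceed the fibroblast markers, as given above.

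Between fibroblast-like cells and smooth muscle cells and pericytes no member passed, where 1.97% of genes did, but Has1 and Ugdh lay near the threshold. Has1 differed by -0.94 on the log2 scale (adjusted p 0.0619 by edgeR) and Ugdh by -1.09 (0.0597), each lower in fibroblast-like cells. Both passed without the filter on low counts (0.0377 and 0.0334 by edgeR), without WT replicate 2 (0.0386 and 0.0158) and without Arom replicate 3 (0.0385 and 0.0217), where Cd44 passed as well (0.0162). Ugdh also passed with limma voom (adjusted p 0.0464).

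In MuSCs and myoblasts Ptx3 rose, 1 of 6 members tested where 3.26% of genes changed. It had 69.9, 56.6 and 81.8 CPM in WT and 184.4, 122.2 and 134.3 CPM in Arom mice, without overlap. The log2 fold change was 1.03 ± 0.191 with an adjusted p of 0.0324 by edgeR. The Ptx3 call held only without Arom replicate 3 (1.05, adjusted p 0.0152 by edgeR) and was lost without each other mouse, with adjusted p of 0.0583 to 0.143. Within the study's limits it was 1.53 with an adjusted p of 0.224 by edgeR. Fibroblast markers in these cells summed to 437.5 to 687.8 CPM in WT and 1158 to 3299 CPM in Arom mice. Ptx3 there stood at 7.21% to 25.4% of its fibroblast-like level and exceeded every marker in 5 of 6 mice. Has1 had 61.1, 77.5 and 71.7 CPM in WT and 25.3, 19.7 and 53.1 CPM in Arom mice, without overlap, with an adjusted p of 0.0819 by edgeR. Has1 stood there at 3.66% of its fibroblast-like level and exceeded every marker in 1 of 6 mice. Cd44 had 393.9, 257.6 and 340.4 CPM in WT and 594.4, 571.3 and 424.2 CPM in Arom mice, without overlap, with an adjusted p of 0.0729 by edgeR. Both passed without Arom replicate 3 (0.00116 for Has1 and 0.0332 for Cd44 by edgeR) and with DESeq2 (0.0391 and 0.0302), and Has1 also without the filter on low counts (0.0366 by edgeR).

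In smooth muscle cells and pericytes Cd44 rose, 1 of 7 members where 0.87% of genes changed. It had 122.0, 95.5 and 99.5 CPM in WT and 254.6, 299.3 and 160.7 CPM in Arom mice, without overlap. The log2 fold change was 1.10 ± 0.208 with an adjusted p of 0.0436 by edgeR. The Cd44 call held only without Arom replicate 3 (adjusted p 0.00262 by edgeR) and was lost without each other mouse, at 0.95 to 1.21 and adjusted p of 0.105 to 0.215. Within the study's limits Cd44 was 0.36 with an adjusted p of 0.782 by edgeR. Vcan rose there as well (1.37), a call kept only without WT replicate 2 and without Arom replicate 3 (adjusted p up to 0.18 by edgeR). Ugdh, Has2, Tnfaip6 and Ptx3 were also higher in every Arom than in every WT mouse in these cells, with adjusted p of 0.11 to 0.463 by edgeR. The share of all genes that separated the genotypes in this way was not counted, so the separation does not set these members apart. Tnfaip6 had a log2 fold change of 0.215 in the main fit and went down to -0.70 among the alternatives. Of these members, Ugdh and Ptx3 passed without Arom replicate 3 (0.0234 and 0.032 by edgeR) and without the filter on low counts (0.0379 and 0.0271), and Ugdh with DESeq2 (0.0105). Fibroblast markers summed to 2255 to 5392 CPM in WT and 4967 to 7457 CPM in Arom mice, and their part was not tested.

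In the remaining types no member passed by edgeR with all 6 mice, every barcode, the filter on low counts and no replicate block. The share of genes that passed was 0.42% in glial cells, 0.0396% in lymphatic endothelial cells, 0.222% in mesothelial cells, 0.227% in myonuclei and 0.914% in T cells. In macrophages and monocytes edgeR called 0 genes, with 691 at an unadjusted p under 0.05, and DESeq2 called 94. A block by replicate number assumes a pairing of the mice that the labels do not give. With this block Tnfaip6 (log2 fold change 1.499, adjusted p 0.0226 by edgeR) and Ptx3 (2.63, 0.0321) passed in macrophages and monocytes and Tnfaip6 (0.66, 0.0451) in myonuclei. In macrophages and monocytes these genes stood at 7.50% and 6.50% of their fibroblast-like level and the markers at 7.48%, and in myonuclei Tnfaip6 stood at 9.04% and the markers at 10.1%. Each exceeded every marker in 1 of 6 mice.

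Other settings gave calls in these types. In glial cells Cd44 (0.59, adjusted p 0.016) and Tnfaip6 (0.57, 0.0299) passed with DESeq2, and Ptx3 passed without the filter on low counts (1.99, 0.00501 by edgeR), within the study's limits (3.58, 0.0284) and without Arom replicate 3 (2.32, 0.0112). In T cells Has1, Tnfaip6 and Ptx3 passed without the filter (0.00112, 1.59e-10 and 9.65e-24 by edgeR), where 443 of 13584 genes did. Ptx3 also passed without Arom replicate 3 (0.0032 by edgeR), while other fits without 1 mouse gave it up to 0.387. DESeq2 called 0 of the 5 members it tested in T cells. With all mice the filter removed Ptx3 in T cells. It stood there at 58.2% and 24.6% of its fibroblast-like level in Arom replicates 1 and 2 and at most 4.45% in the other mice. The fibroblast markers stood at 42.1% and 30.9% in Arom replicates 1 and 2, and Ptx3 exceeded every marker in no mouse. Their part in these calls was not tested. In lymphatic endothelial cells Tnfaip6 passed without WT replicate 1 (2.51, 0.0367 by edgeR) and Ptx3 without the filter (1.29, 0.00199). Ptx3 in macrophages and monocytes (3.12, 0.0375 by edgeR) and Ugdh in mesothelial cells (0.84, 0.0233) passed without Arom replicate 3. Glial cells had 5 members higher in every Arom mouse than in every WT mouse. The share of all genes that did so was not counted, so this count does not set the members apart. Among these members Cd44 had 212.2, 210.0 and 219.3 CPM in WT and 302.8, 405.4 and 296.6 CPM in Arom mice, with a log2 fold change of 0.60 and an adjusted p of 0.101 by edgeR. Fibroblast markers in glial cells summed to 7951 to 10160 CPM in WT and 11090 to 13010 CPM in Arom mice. Cd44 in macrophages and monocytes had 368.3 to 477.4 CPM in WT and 399.7 to 508.5 CPM in Arom mice, a log2 fold change of 0.10 ± 0.156.

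Summed over all barcodes, Cd44 was 1 of 7 members to change, where 23.6% of 15334 genes did. It had 191.5, 159.9 and 148.8 CPM in WT and 311.8, 298.9 and 238.5 CPM in Arom mice, without overlap. The log2 fold change was 0.80 ± 0.177 with an adjusted p of 0.0282 by edgeR. The Cd44 call held without WT replicate 1 and without Arom replicate 3 and was lost without each other mouse, with adjusted p of 0.0953 to 0.099 by edgeR. Hyal2 was lower in every Arom mouse, with 15.4, 14.9 and 26.1 CPM in WT and 8.97, 6.70 and 14.7 CPM in Arom mice and an adjusted p of 0.105 by edgeR, or 0.0401 without Arom replicate 3. Without WT replicate 1, Has2, Ugdh and Tnfaip6 passed (0.0263, 0.0359 and 0.0251 by edgeR), and DESeq2 called Ptx3 (0.0442). Endothelial cells, which on average held the largest share of Hyal2 UMIs, numbered 3212, 3911 and 3115 in WT and 2202, 1819 and 2216 in Arom mice. The part of these cell numbers in the Hyal2 values was not tested.

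**Figure D5:**
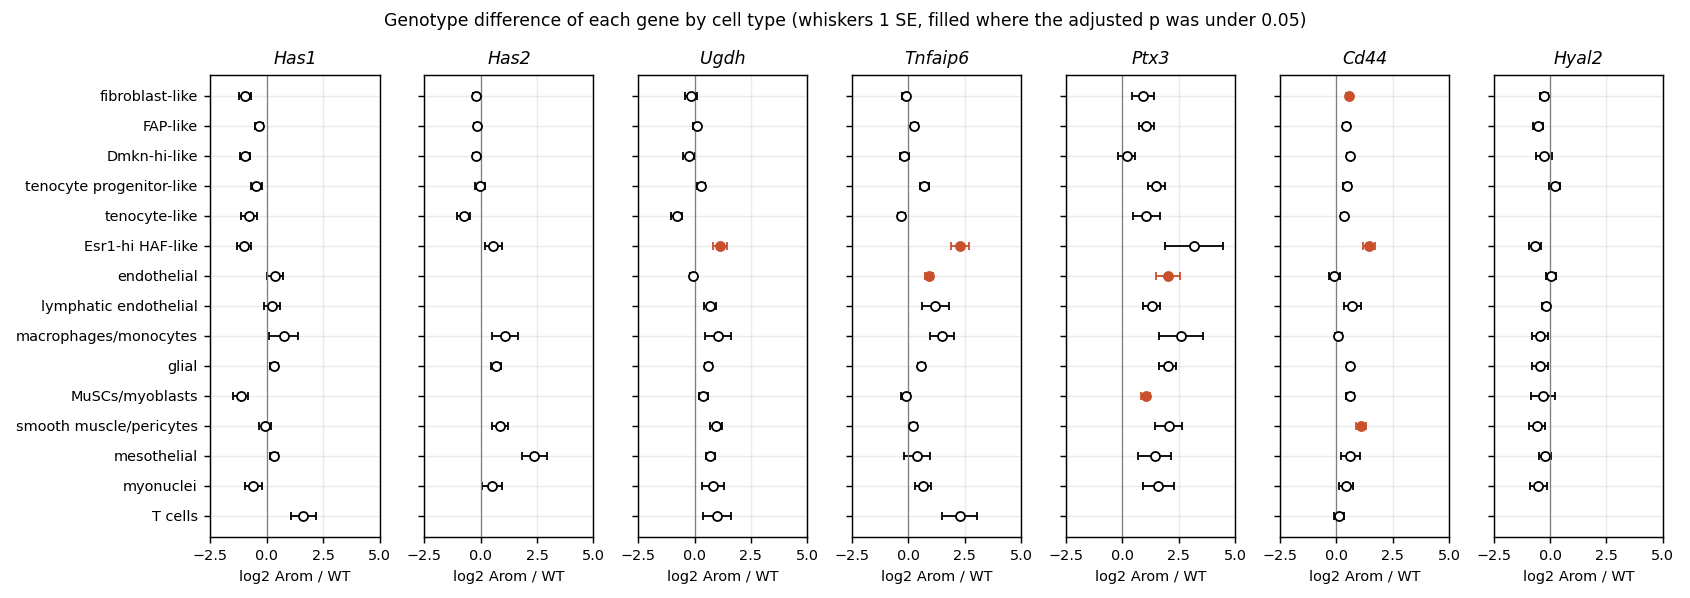
Each panel shows 1 gene, with cell types and fibroblast groups on the y axis and the log2 fold change of Arom over WT on the x axis, whiskers 1 SE of the edgeR fit. Filled red points had an adjusted p under 0.05: Cd44 in fibroblast-like, Esr1-hi HAF-like and smooth muscle cells, Ugdh in Esr1-hi HAF-like cells, Tnfaip6 in Esr1-hi HAF-like and endothelial cells, and Ptx3 in endothelial cells and MuSCs.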

How the data were processed

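The authors deposited 1 table of raw UMI counts per gene and barcode, made with Cell Ranger 3.0.2 on mm10 with human CYP19A1 added, from 10x Genomics 3' libraries of 3 WT and 3 Arom mice. All deposited barcodes entered the main analysis, because the upper limit on genes removes more Arom than WT barcodes. The study's limits (200 to 2500 genes, at least 1000 UMIs, at most 5% mitochondrial UMIs) were an alternative. Barcodes were clustered with scanpy 1.11.5 (2000 variable genes without the hyaluronan list, 30 components, 20 neighbors, Leiden resolution 0.8) and named by marker genes. A Scrublet score over 0.25 marked 1.1% to 2.4% of barcodes as doublets, which were kept and left out in an alternative, since the automatic cut marked 0% in 2 WT libraries. Counts were summed per mouse and type with at least 20 cells in each mouse, and CPM were computed from the sums. Genotypes were tested with edgeR 4.0.16 in R 4.3.3 (TMM, filterByExpr, quasi-likelihood test, Benjamini-Hochberg over all genes tested, threshold 0.05), tested on simulated data first. Alternatives were DESeq2 1.42.0, RLE factors, no filter, limma 3.58.1, the replicate number as a block, other resolutions and each mouse left out.

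The study processed 1 WT mouse and an Arom littermate on each of 3 dates, but the labels do not say that a number marks a date. Deviations of same-numbered mice correlated at 0.245, 0.159 and 0.339 in endothelial cells, 0.269, 0.136 and 0.164 in macrophages and 0.125, 0.165 and 0.223 in myonuclei, and block results stand among the main results only there. In smooth muscle cells and pericytes the values were 0.152, 0.0933 and 0.247. Pairing would belong to the mouse and not to a cell type, and the choice was made from the same data. It therefore does not settle whether the numbers pair the mice. With the block 2875, 64 and 209 genes changed in endothelial cells, macrophages and myonuclei against 1719, 0 and 17 without it. Between replicate libraries of a group chi-square per degree of freedom was 82.8 to 343, so none was deposited in duplicate. Shares of cells were computed after thinning cells to 1000 UMIs. Closest genes had a mean of at least 10 CPM. Named genes were the 7 members, the genes of the hyaluronan list that passed, and 3 closest genes per member. The members and lists were chosen with earlier results of these data known. Promoters came from RefSeq on GRCm38.p6. One gene of the wider list is counted but not reported here by name.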

Additional observations from a re-analysis of the deposited data

Results flagged for a closer look

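Of 10 values marked for a second look, 4 are tested differences between cell types. The genotype effect differed between fibroblast-like and endothelial cells by -1.32 on the log2 scale for Has1 (adjusted p 0.0117 by edgeR), by -1.02 for Tnfaip6 (0.00894) and by -1.33 for Ptx3 (0.0205), with fibroblast-like cells the lower. Within the study's limits none of the 3 passed (0.372, 0.152 and 0.116 by edgeR). Has1 and Tnfaip6 in endothelial cells did not exceed the fibroblast markers in any mouse, and these markers summed to 186.2 to 288.5 CPM in WT and 430.9 to 533.5 CPM in Arom endothelial cells. It differed by 2.07 for Tnfaip6 (0.0139 by edgeR) between Esr1-hi HAF-like and other fibroblast-like cells.

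Has1 lay on opposite sides of WT by cell type without overlap of the genotypes, and this contrast was not tested. None of the 3 differences passed on its own, with adjusted p of 0.25 in T cells, 0.0552 in fibroblast-like cells and 0.0819 in MuSCs and myoblasts by edgeR. Each passed under some alternatives, with the lowest adjusted p at 0.00112 (edgeR without the filter on low counts), 0.00245 (DESeq2) and 0.00116 (edgeR without Arom replicate 3). On the log2 ratio of mean CPM, Arom over WT, it was 1.70 in T cells, -0.93 in fibroblast-like cells and -1.08 in MuSCs and myoblasts. The T cell clusters held 6 to 22 Has1 UMIs per WT mouse and 52 to 94 per Arom mouse. In Arom replicates 1 and 2 the fibroblast markers stood in T cells at 42.1% and 30.9% of their fibroblast-like level, above Has1 at 23.7% and 19.3%. In Arom replicate 3, which had the highest T cell level of Has1 (408.9 CPM, 52 UMIs), Has1 stood at 30.5% and the markers at 8.09%. Has1 exceeded every marker in 2 of 6 mice in T cells and, at 3.66% of its fibroblast-like level, in 1 of 6 in MuSCs and myoblasts.

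Unnamed clusters entered only the sum over all barcodes and no comparison of their own. There 3 members were higher in every Arom than in every WT mouse, with Arom means of 320.9 CPM for Ugdh, 680.5 CPM for Tnfaip6 and 220.6 CPM for Cd44 against WT means of 176.0, 407.1 and 124.6 CPM. The share of all genes that did so in these clusters was not counted, so this count does not set the members apart.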

How the results depend on the processing

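Counts of genes that changed depended on the mice, the barcodes and the tool. In fibroblast-like cells 1775 genes by edgeR became 2926 with DESeq2 and 1 within the study's limits. With equal weight of 12 sub-clusters there were 289, where the tool was limma and the other sub-clusters were left out. The limits gave 797 genes in endothelial, 0 in lymphatic endothelial, 2 in glial cells, 35 in MuSCs, 0 in myonuclei, 0 in smooth muscle, 0 in mesothelial cells and 0 over all barcodes, and 53 and 24 for the contrasts of fibroblast-like with endothelial and smooth muscle cells (1531 and 258). DESeq2 gave 17 in lymphatic endothelial cells, 94 in macrophages, 77 in T cells, 81 in glial cells, 63 in myonuclei, 200 in smooth muscle, 581 in mesothelial cells and 5527 over all barcodes. Without the filter on low counts there were 85, 443, 112, 594, 147, 351 and 130 in lymphatic endothelial cells, T cells, glial cells, MuSCs, myonuclei, smooth muscle and mesothelial cells and 394 for the smooth muscle contrast, and RLE factors gave 6 in lymphatic endothelial cells. The replicate block gave 2875 in endothelial cells, 64 in macrophages, 160 in glial cells, 720 in MuSCs, 209 in myonuclei, 554 in smooth muscle and 430 in mesothelial cells. It gave 1470 in fibroblast-like cells, and with it Has1 passed there (adjusted p 0.0456 by edgeR) and in Esr1-hi HAF-like cells (0.00455), where Ptx3 passed as well (0.0124). The block also brought calls of Has1 and Cd44 in MuSCs (0.0265 and 0.0322), of Ugdh and Ptx3 in smooth muscle (0.00543 and 0.00607), of Ugdh, Cd44, Tnfaip6 and Ptx3 in glial cells (0.0453, 0.0309, 0.0147 and 0.00371), and of Hyal2 and Ptx3 over all barcodes (0.0132 and 0.0422 by edgeR). Main counts were 3, 0, 26, 40, 284, 17, 82, 26 and 3612 in lymphatic endothelial cells, macrophages, T cells, glial cells, MuSCs, myonuclei, smooth muscle, mesothelial cells and all barcodes. The causes were not tested.

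Leaving out 1 mouse gave 3 to 4075 genes in fibroblast-like cells (4075 without Arom replicate 3), 236 to 2393 in Esr1-hi HAF-like, 427 to 1678 in endothelial, 0 to 35 in lymphatic endothelial, 0 to 272 in macrophages, 0 to 227 in T cells, 8 to 121 in glial cells, 0 to 1112 in MuSCs, 1 to 108 in myonuclei, 1 to 835 in smooth muscle, 0 to 1385 in mesothelial cells and 0 to 4877 over all barcodes. For the contrasts it gave 359 to 2192 with endothelial cells, 8 to 1168 with smooth muscle and 81 to 835 for Esr1-hi HAF-like against other fibroblast-like cells.

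Within the limits Ugdh stood at 1432 CPM (1003 with all barcodes) and Tnfaip6 at 3121 CPM (2140) in fibroblast-like cells, and shares of cells were 55.4% for Has1, 51.5% for Ugdh and 63.3% for Tnfaip6. Without thinning they were 76.2% for Has1, 32.7% for Has2, 78.8% for Ugdh, 79.7% for Tnfaip6, 48.1% for Ptx3, 71.8% for Cd44 and 4.69% for Hyal2. Log2 fold changes that turned their sign were all of results that did not pass. In fibroblast-like cells Has2 was 0.14 within the limits and 0.0074 with equal weight, Ugdh 0.25 and 0.060 and Tnfaip6 0.11 and 0.26. Leaving out 1 mouse gave -0.35 to 0.20 for Ugdh, -0.19 to 0.023 for Tnfaip6 and -0.14 to 0.66 for Has1 in endothelial cells. Has2 in Esr1-hi HAF-like cells was -0.022 at a resolution of 1.2. These turns were sought among the pairs of member and comparison picked for the text. Of the 398 alternative log2 fold changes of those pairs, 315 kept their direction and side of the threshold. Signs also turned outside them, as for Tnfaip6 in smooth muscle (-0.70 against 0.215) and Has1 in myonuclei (1.71 against -0.59).

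Esr1-hi HAF-like cells, T cells and the Esr1-hi contrast had too few cells within the limits. With 3 mice per genotype and low UMIs of Has2 and Hyal2, small differences were not detectable.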
